A study of Mus musculus with 9 samples.

Results

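Cytochrome P450 enzymes are haem proteins that insert oxygen into fatty acids, sterols, retinoids, drugs and other lipophilic molecules. Most sit in the endoplasmic reticulum and receive electrons from a flavoprotein reductase, while a few sit in mitochondria and use ferredoxin. In heart tissue they are known for making signalling lipids from arachidonic acid and for setting local retinoic acid levels. The 9 members described here in mouse hearts were Cyp2d22, Cyp2j6, Cyp2j9, Cyp2u1, Cyp4b1, Cyp2e1, Cyp1b1, Cyp26b1 and Cyp27a1. Each was taken as the probe set with that single symbol in the platform annotation. This gave 9 probe sets of 33793 in the array table, out of 94 probe sets for 90 P450 genes. The genes were chosen with results of these hearts known, and Cyp2d22 was chosen by its difference between Col4a3-/-OPN-/- and Col4a3-/- hearts. For the 9 genes that comparison is therefore given as a description with no p-value.

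The hearts came from 2 month old mice, 1 heart to an array. The groups were 3 Col4a3-/-OPN-/- hearts, which lack a type IV collagen chain and osteopontin (the product of Spp1), 3 Col4a3-/- hearts, which lack the collagen chain alone, and 3 wild type hearts. Both deletions are named in the labels without an allele or a driver, and neither strain nor sex is given. Col4a3-/- mice serve as a model of Alport syndrome, a basement membrane disease of the kidney.

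The values are log2 signals on an Affymetrix mouse gene array, so a difference of 1 is a doubling, and signals of different genes are not on a common scale. Over all 33793 probe sets the median of the mean signal was 5.21. The 13650 probe sets with 1 symbol and a mean above that level were tested with limma, and all 9 members were among them. The Col4a3 probe set lay between 4.87 and 5.52 in all hearts and could not check the labels, and no probe set carries the symbol Spp1 here. Mean signals of 7 cardiomyocyte markers lay between 11.2 and 11.6 in every heart. The Y-linked gene Eif2s3y was low in 3 hearts, Col4a3-/-OPN-/- replicate 2 (4.75), Col4a3-/- replicate 1 (4.60) and Col4a3-/- replicate 3 (4.67), and at 7.998 or more in the other 6, so sex by this marker was unbalanced between genotypes. Col4a3-/- hearts also varied more among themselves, with a mean Pearson's r of 0.949 within the group, against 0.980 in Col4a3-/-OPN-/- and 0.984 in wild type hearts. In a bulk heart, fewer cells of a type and less RNA per cell cannot be told apart.

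The promoter windows of 3 members are shown because, among the 7 members with a RefSeq entry (build GRCm38.p6), these genes varied most from heart to heart. Each window runs 5′ to 3′ on the gene's own strand, from 250 bases before the start site to 50 after it. Capitals mark matches, on either strand, to any of 5 motifs: the TATA box TATAAA, the core GCGTG of the xenobiotic response element, the E-box CACGTG, the nuclear receptor half-site AGGTCA and the D-box TTATGTAA of clock-driven transcription factors.
Cyp2e1 (chr7:140763569-140763868, plus strand): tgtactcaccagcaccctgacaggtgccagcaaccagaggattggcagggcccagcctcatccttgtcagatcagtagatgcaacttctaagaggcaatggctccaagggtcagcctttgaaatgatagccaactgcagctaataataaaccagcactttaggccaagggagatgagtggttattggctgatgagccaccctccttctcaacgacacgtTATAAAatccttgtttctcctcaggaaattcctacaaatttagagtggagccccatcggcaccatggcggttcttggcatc
Cyp1b1 (chr17:79715012-79715311, minus strand): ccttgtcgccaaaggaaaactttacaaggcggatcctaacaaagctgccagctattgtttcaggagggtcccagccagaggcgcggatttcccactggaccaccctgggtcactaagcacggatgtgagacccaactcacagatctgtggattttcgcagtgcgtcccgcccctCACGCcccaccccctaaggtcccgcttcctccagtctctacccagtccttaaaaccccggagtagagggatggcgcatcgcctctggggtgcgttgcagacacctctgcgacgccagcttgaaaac
Cyp26b1 (chr6:84593761-84594060, minus strand): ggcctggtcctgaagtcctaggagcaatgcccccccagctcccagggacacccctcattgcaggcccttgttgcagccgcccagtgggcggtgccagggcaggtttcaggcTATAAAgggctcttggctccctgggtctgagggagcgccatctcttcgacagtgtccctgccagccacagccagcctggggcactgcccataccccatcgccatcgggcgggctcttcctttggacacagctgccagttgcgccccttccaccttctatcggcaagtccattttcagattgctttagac

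Cyp2e1 held a TATA box from -31 to -26, the usual place ahead of a start site, while that of Cyp26b1 lay farther away, from -139 to -134. Cyp1b1, a textbook target of the aryl hydrocarbon receptor, held 1 response element core, on the opposite strand from -76 to -72. Of the members not printed, Cyp2j6 held an E-box from -44 to -39 and Cyp2j9 a response element core from -171 to -167, and Cyp4b1 and Cyp27a1 held none of the 5 motifs. No 2 matches overlapped. Over all 32851 windows of this length, 13.6% held TATAAA, 32.4% GCGTG, 7.15% CACGTG, 16.3% AGGTCA and 0.938% TTATGTAA, so single matches are common, and they were not set against binding or activity.

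Cyp2d22 belongs to the mouse relatives of human CYP2D6, an oxidase of many drugs and amines. Its signal, by replicate, was 7.82, 7.88 and 7.96 in Col4a3-/-OPN-/- hearts, 6.58, 6.77 and 6.53 in Col4a3-/- hearts, and 7.10, 7.64 and 7.28 in wild type hearts. The 3 genotypes did not overlap: hearts without Col4a3 and osteopontin were highest, wild type hearts lay between, and hearts without Col4a3 alone were lowest. The Col4a3-/-OPN-/- mean was 7.89 ± 0.07 and the Col4a3-/- mean 6.63 ± 0.13 (SD, n = 3 each), a log2 difference of 1.26 (SE 0.16), or 2.39-fold. This was 1 of 6 probe sets called over the whole table in this comparison, which is 0.0440% of those tested. It is the value that chose the gene, so the call is no support for it. The call was kept in 10 of 17 alternative settings. It was lost with the replicate number as a block, with a Y-linked covariate, without any 1 Col4a3-/-OPN-/- heart, without Col4a3-/- replicate 3 and without wild type replicate 3.

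Against wild type hearts, Cyp2d22 passed no test over all genes in either direction. Its mean in wild type hearts was 7.34 ± 0.28 (SD, n = 3). The Col4a3-/- difference from wild type was -0.71 (SE 0.16, 95% interval -1.05 to -0.37), with limma adjusted p = 0.387 and 3 of 3 hearts below every wild type heart. The Col4a3-/-OPN-/- difference from wild type was 0.55 (SE 0.16, 95% interval 0.20 to 0.89), with limma adjusted p = 0.999 and 3 of 3 hearts above every wild type heart. Both intervals are for 1 gene alone and exclude 0, while the adjusted p-values cover 13650 probe sets. These comparisons share hearts with the one that chose the gene. A choice by that difference favours low values in Col4a3-/- hearts and high values in Col4a3-/-OPN-/- hearts. The intervals and the separation of the groups are therefore no independent support for either difference.

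**Figure D1:**
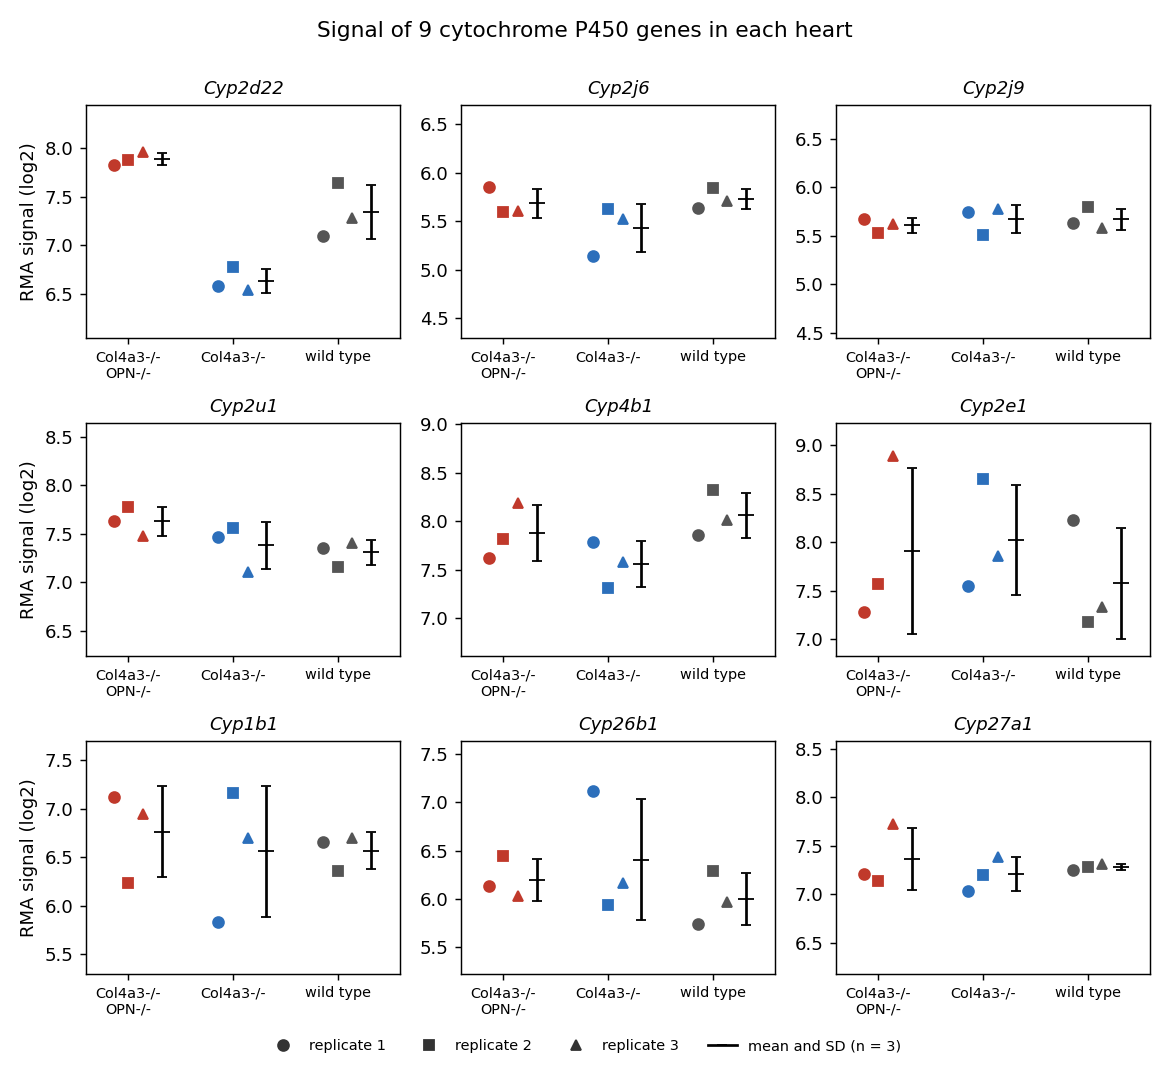
Signal of each of the 9 P450 genes in each heart (y axis, log2 RMA signal, each panel spanning the same number of log2 units), for Col4a3-/-OPN-/-, Col4a3-/- and wild type hearts from left to right; symbols mark the replicate and the bar gives mean and SD of 3 hearts. Cyp2d22 separates the 3 genotypes, at 7.89, 6.63 and 7.34 on average, while Cyp2e1, Cyp1b1 and Cyp26b1 spread widely within genotypes.

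Smooth muscle and pericyte markers moved with Cyp2d22. The mean signal of 8 such markers lay between 8.83 and 8.86 in Col4a3-/-OPN-/- hearts, between 7.95 and 8.34 in Col4a3-/- hearts, and between 8.85 and 8.86 in wild type hearts. Col4a3-/- hearts were lowest for these markers as for Cyp2d22, and the other genotypes overlapped in this mean. Myh11, the smooth muscle myosin among them, was at 8.15, 8.14 and 8.17 in Col4a3-/-OPN-/- hearts, 6.90, 7.01 and 6.73 in Col4a3-/- hearts, and 7.83, 8.01 and 7.99 in wild type hearts, the same order of genotypes as Cyp2d22. Of the 8 markers, 6 were lower in Col4a3-/- than in wild type hearts without overlap, where 7.90% of all tested probe sets were. Abcc9 (-0.02) and Notch3 (-0.13) overlapped. Against wild type hearts, 5 of 8 had a lower mean in Col4a3-/-OPN-/- hearts, unlike Cyp2d22. Among them Acta2 (-0.57) and Tagln (-0.14) were lower without overlap, where 771 of all 13650 tested probe sets were. Atrial markers lay between 10.3 and 10.5 in Col4a3-/-OPN-/- hearts, at 8.93, 10.4 and 9.14 in the Col4a3-/- hearts by replicate, and between 10.6 and 10.8 in wild type hearts. Cyp2d22 was at 6.77 in Col4a3-/- replicate 2. Of the 5 atrial markers there, Bmp10 (9.17), Myl4 (7.33) and Nppa (12.9) lay below every Col4a3-/-OPN-/- heart. Sln (11.3) lay within the Col4a3-/-OPN-/- range and Myl7 (11.2) above it. The part of smooth muscle or atrial content in the Cyp2d22 values was not tested. With any 1 heart left out, its Col4a3-/-OPN-/- minus Col4a3-/- difference was between 1.21 and 1.33, and it was 1.22 with the Y-linked signal in the model, the call being lost in 6 of these 10 fits.

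The genes whose signals were most like Cyp2d22 over the 9 hearts were Cep162, a centriole protein (Pearson's r = 0.975), Qpctl, a Golgi glutaminyl cyclase (0.967), Abcc8, the sulfonylurea receptor of potassium channels (0.966), Snap91, a clathrin adaptor (0.949), and Itpripl1 (0.947). They were ranked among 13650 probe sets, and the 9 hearts share the 3 genotypes, so the coefficients describe likeness only. Abcc8 was at 8.45, 8.38 and 8.35 in Col4a3-/-OPN-/- hearts, 7.80, 7.85 and 7.57 in Col4a3-/- hearts, and 7.97, 8.40 and 8.09 in wild type hearts. Its Col4a3-/- hearts lay below all others, and the other genotypes overlapped. Qpctl, Snap91 and Itpripl1 separated all 3 genotypes in the order of Cyp2d22, while Cep162 overlapped between Col4a3-/- and wild type hearts. Snap91 was also among the probe sets called in Col4a3-/-OPN-/- against Col4a3-/- hearts, with a difference of 1.33 (SE 0.17).

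Of the 8 other Cyp2d genes with a probe set, only Cyp2d26 was above the median signal. It was at 5.32, 5.26 and 5.38 in Col4a3-/-OPN-/- hearts, 5.72, 5.44 and 5.79 in Col4a3-/- hearts, and 5.18, 5.19 and 5.46 in wild type hearts. Its highest values were in Col4a3-/- hearts, where Cyp2d22 was lowest, with a log2 difference of -0.33 (SE 0.12) between Col4a3-/-OPN-/- and Col4a3-/- hearts (limma adjusted p = 0.292). Signals this close to the median are dim, so the size of the change is uncertain. Genes adjacent to Cyp2d22 had small differences. Ndufa6, a complex I subunit next to Cyp2d22 on chromosome 15, had a Col4a3-/-OPN-/- minus Col4a3-/- difference of -0.22 (SE 0.15), and Smdt1, a part of the mitochondrial calcium uniporter, one of -0.05 (SE 0.13), with limma adjusted p = 0.554 and 0.883. The adjacent Cyp2d11 was dim in all hearts, at 4.36 to 4.67. Cross-hybridisation between Cyp2d copies was not tested.

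The lipid-oxidising members differed less between genotypes. Cyp2j6 and Cyp2j9 belong to the subfamily that turns arachidonic acid into epoxyeicosatrienoic acids, which relax vessels, and whose human form CYP2J2 is abundant in heart. Cyp2j6 was at 5.85, 5.60 and 5.61 in Col4a3-/-OPN-/- hearts, 5.15, 5.63 and 5.52 in Col4a3-/- hearts, and 5.64, 5.84 and 5.71 in wild type hearts. Every Col4a3-/- heart was below every wild type heart, by 0.01 at the nearest pair, while Col4a3-/-OPN-/- hearts overlapped both. Its Col4a3-/- difference from wild type was -0.30 (SE 0.14, 95% interval -0.60 to 0.0048, limma adjusted p = 0.603). Cyp2j9 was close in all genotypes, between 5.53 and 5.68 in Col4a3-/-OPN-/- hearts, 5.50 and 5.77 in Col4a3-/- hearts, and 5.58 and 5.79 in wild type hearts. Its 95% interval against wild type hearts was -0.24 to 0.24 for Col4a3-/- and -0.31 to 0.18 for Col4a3-/-OPN-/- hearts. These 2 genes lie beside each other on chromosome 4, and both were within 1 log2 unit of the median signal, where changes are compressed.

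Cyp4b1 oxidises medium-chain fatty acids and activates lung toxins in rodents. It was at 7.62, 7.82 and 8.19 in Col4a3-/-OPN-/- hearts, 7.79, 7.31 and 7.58 in Col4a3-/- hearts, and 7.86, 8.32 and 8.01 in wild type hearts. All Col4a3-/- hearts were below all wild type hearts, and Col4a3-/-OPN-/- hearts spanned both groups. Its Col4a3-/- difference from wild type was -0.50 (SE 0.19, 95% interval -0.92 to -0.08), short of the threshold over all genes (limma adjusted p = 0.520). The Col4a3-/-OPN-/- difference was 0.32 (SE 0.19) from Col4a3-/- hearts and -0.18 (SE 0.19, adjusted p = 0.999) from wild type hearts.

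Cyp2u1 hydroxylates long-chain fatty acids such as arachidonic acid. It was at 7.63, 7.77 and 7.48 in Col4a3-/-OPN-/- hearts, 7.47, 7.56 and 7.11 in Col4a3-/- hearts, and 7.35, 7.16 and 7.41 in wild type hearts. Every Col4a3-/-OPN-/- heart was above every wild type heart, by a mean of 0.32 (SE 0.16, 95% interval -0.02 to 0.66, limma adjusted p = 0.999), and Col4a3-/- hearts overlapped both groups. With each heart left out in turn this difference was between 0.25 and 0.40.

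Cyp2e1 oxidises ethanol, acetone and fatty acids and is strong in liver and fat. It had the widest spread of the 9 genes, 1.71 log2 units. It was at 7.28, 7.57 and 8.89 in Col4a3-/-OPN-/- hearts, 7.55, 8.65 and 7.86 in Col4a3-/- hearts, and 8.23, 7.17 and 7.33 in wild type hearts. One heart in each genotype stood above its fellows, and the groups overlapped throughout. Its difference from wild type hearts was 0.44 for Col4a3-/- (SE 0.43, 95% interval -0.50 to 1.39) and 0.33 for Col4a3-/-OPN-/- hearts (SE 0.43, 95% interval -0.61 to 1.28), with limma adjusted p = 0.801 and 0.999. The second of these turned to -0.15 without Col4a3-/-OPN-/- replicate 3.

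Fat markers were set beside Cyp2e1 in the heart of each genotype that had the most of it. Col4a3-/- replicate 2 had the highest signals of the brown fat genes Ucp1 (11.1) and Elovl3 (8.86) and of the fat cell genes Adipoq (7.36) and Plin1 (7.65). Col4a3-/-OPN-/- replicate 3, with the highest Cyp2e1, had Ucp1 at 7.95, Elovl3 at 6.41, Adipoq at 5.88 and Plin1 at 5.98. Fabp4, a fatty acid carrier, was between 11.2 and 11.8 in all hearts and highest in this heart. Its brown and white fat marker means were the highest of its genotype, the white fat mean narrowly (6.923, against 6.908 in replicate 2). Within that genotype Ucp1 was higher in replicate 1 (8.24), and Retn was lowest in replicate 3 (6.02). Wild type replicate 1 had Ucp1 at 8.29, Elovl3 at 5.19, Adipoq at 5.93 and Plin1 at 6.05. Its brown fat marker mean was the lowest of its genotype (7.96) and its white fat marker mean the highest (6.95). The mean of 4 brown fat markers lay between 7.49 and 8.35 in Col4a3-/-OPN-/- hearts, between 6.93 and 9.98 in Col4a3-/- hearts, and between 7.96 and 8.62 in wild type hearts. For 5 measured white fat markers the ranges were 6.82 to 6.92, 6.71 to 7.76 and 6.75 to 6.95 in the same order of genotypes. The part of fat in the Cyp2e1 signal was not tested.

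Cyp1b1 and Cyp26b1 act on small signalling lipids: Cyp1b1 oxidises oestradiol and retinol, and Cyp26b1 degrades retinoic acid. Cyp1b1 was at 7.12, 6.23 and 6.94 in Col4a3-/-OPN-/- hearts, 5.83, 7.16 and 6.69 in Col4a3-/- hearts, and 6.65, 6.35 and 6.70 in wild type hearts. Cyp26b1 was at 6.13, 6.44 and 6.03 in Col4a3-/-OPN-/- hearts, 7.11, 5.93 and 6.17 in Col4a3-/- hearts, and 5.74, 6.28 and 5.97 in wild type hearts. In each genotype the heart with the least Cyp1b1 had the most Cyp26b1: Col4a3-/-OPN-/- replicate 2, Col4a3-/- replicate 1 and wild type replicate 2. The first 2 of these hearts were also among the 3 with a low Y-linked signal, while Col4a3-/- replicate 3, the other such heart, had 6.69 and 6.17. The part of sex in this pattern was not tested. Of all pairs among the 9 members, Cyp1b1 and Cyp26b1 had the lowest Pearson's r over the 9 hearts (-0.803). The pattern is thus the extreme of many pairs, seen in these same hearts, and is a description only.

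Between genotypes neither gene passed. The Col4a3-/- difference from wild type was -0.01 for Cyp1b1 (SE 0.32, 95% interval -0.70 to 0.69) and 0.41 for Cyp26b1 (SE 0.27, 95% interval -0.19 to 1.002), with limma adjusted p = 0.997 and 0.708. The Col4a3-/-OPN-/- difference from wild type was 0.20 for each gene (SE 0.32 for Cyp1b1 and 0.27 for Cyp26b1, adjusted p = 0.999 for both). The Cyp26b1 value in Col4a3-/- hearts rested on replicate 1, without which it was 0.05. Without the same heart the Cyp1b1 value was 0.36, and without Col4a3-/- replicate 2 it was -0.31. With the Y-linked signal in the model the Col4a3-/- difference from wild type was -0.0018 for Cyp26b1 and 0.64 for Cyp1b1.

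Cyp27a1, a mitochondrial sterol hydroxylase, makes oxysterols and starts the acidic route to bile acids. It was at 7.21, 7.14 and 7.72 in Col4a3-/-OPN-/- hearts, 7.03, 7.20 and 7.38 in Col4a3-/- hearts, and 7.25, 7.28 and 7.31 in wild type hearts. Wild type hearts were closely grouped (SD 0.03), the knockout hearts spread around them, and all groups overlapped. Its difference from wild type hearts was -0.07 for Col4a3-/- (SE 0.17, limma adjusted p = 0.925) and 0.08 for Col4a3-/-OPN-/- hearts (SE 0.17, adjusted p = 0.999).

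**Figure D2:**
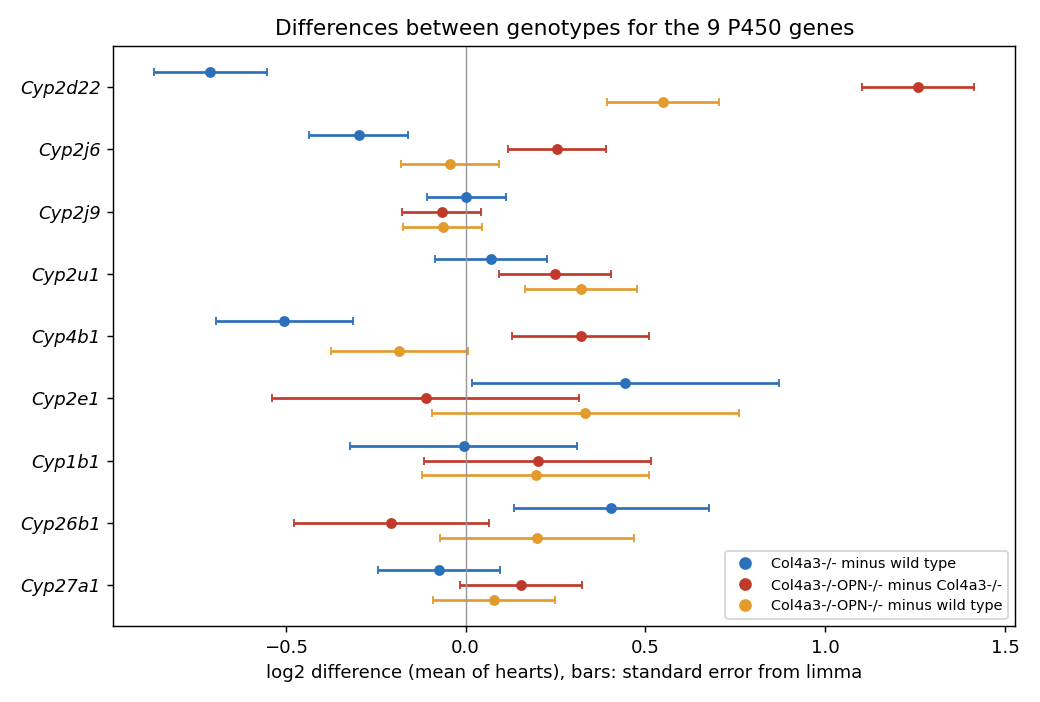
Log2 differences of the 9 P450 genes in the 3 comparisons (x axis, points are differences of means, bars are standard errors from limma, n = 3 hearts a genotype). Cyp2d22 has the largest difference of the 9 genes in each comparison, at -0.71, 1.26 and 0.55, and the other genes lie closer to 0.

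The 9 genes split between both directions. In Col4a3-/- against wild type hearts, 4 differences were positive and 5 negative (median -0.01, over all tested probe sets -0.02). None of the 9 passed, as 0 of 13650 probe sets did with limma (0% called), and 2 members had an unadjusted p under 0.05, both lower, where 5.96% of all probe sets were. In 3 of 9 genes (Cyp2d22, Cyp2j6 and Cyp4b1) the Col4a3-/- hearts lay below all wild type hearts, where 7.90% of all probe sets did so. Between Col4a3-/-OPN-/- and Col4a3-/- hearts, 6 were positive and 3 negative (median 0.20, over all tested probe sets 0.04), and groups were apart for Cyp2d22 only, where 10.1% of all probe sets were higher without overlap. For Col4a3-/-OPN-/- against wild type hearts, 6 were positive and 3 negative (median 0.20, over all tested probe sets 0.01), 0 of 13650 passed (0% called), and 1 member, Cyp2d22, had an unadjusted p under 0.05 and was higher, where 1.89% of all probe sets were. At an unadjusted p under 0.05 in either direction there were 1140 probe sets (8.35%) in Col4a3-/- against wild type, 1857 (13.6%) in Col4a3-/-OPN-/- against Col4a3-/-, and 503 (3.68%) in Col4a3-/-OPN-/- against wild type hearts. Groups were apart and higher for Cyp2d22 and Cyp2u1, where 7.55% of all probe sets were. The comparisons share hearts and the members were chosen with results known, so these counts are a description.

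Across the wider family, most P450 genes were dim in these hearts. Of 90 genes, 23 had a probe set above the median signal, the 9 members and 14 others. None of the 14 passed in any comparison (smallest limma adjusted p 0.461 for Col4a3-/- against wild type, 0.292 for Col4a3-/-OPN-/- against Col4a3-/- and 0.999 for Col4a3-/-OPN-/- against wild type hearts). At an unadjusted p under 0.05 there were 1, 2 and 1 of them. Their median differences were 0.01, -0.02 and 0.04. Apart from Cyp2f2, the highest in Col4a3-/- against wild type hearts were Cyp2d26 (0.38, SE 0.12) and Cyp7b1, an oxysterol hydroxylase (0.19, SE 0.09), and the lowest were Cyp4f13 (-0.25), Cyp39a1 (-0.23) and Cyp2s1 (-0.22). In Col4a3-/-OPN-/- against Col4a3-/- hearts the highest were Cyp39a1 (0.28), Cyp4f13 (0.15) and Cyp2s1 (0.12), and the lowest Cyp4f17 (-0.38), Cyp2d26 (-0.33) and Cyp2a22 (-0.29). Against wild type hearts, Col4a3-/-OPN-/- values of Cyp7b1 (0.19) and Cyp2j11 (0.14) followed Cyp2f2, and those of Cyp2a22 (-0.35), Cyp4f17 (-0.30) and Cyp4f13 (-0.10) were lowest.

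**Figure D3:**
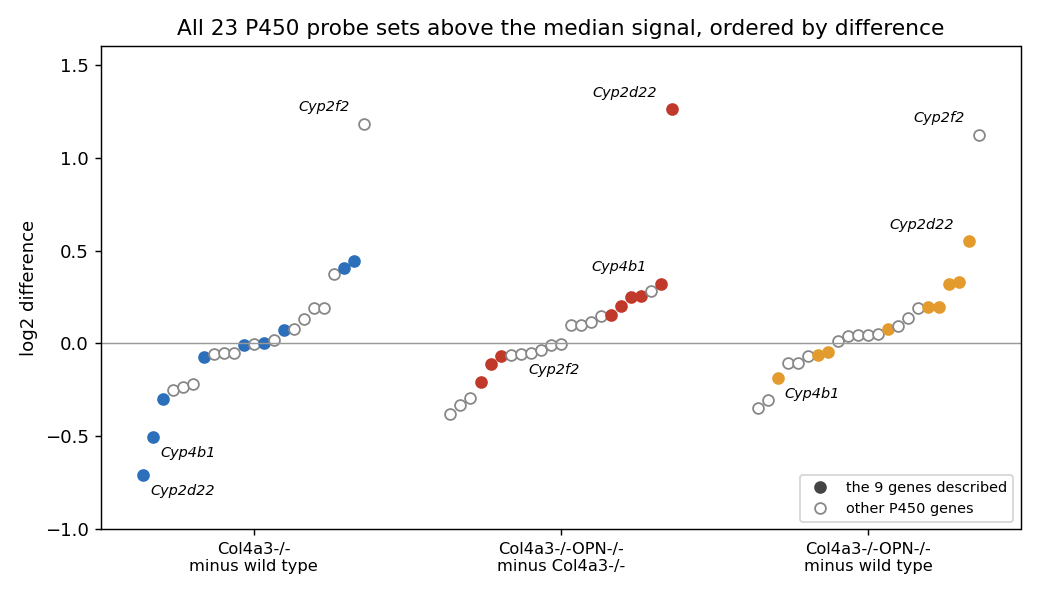
Log2 differences (y axis) of the 23 P450 genes above the median signal in each of the 3 comparisons, ordered by size within a comparison; filled points are the 9 genes described and open points the 14 others. Cyp2d22 is the lowest point in Col4a3-/- against wild type hearts (-0.71) and the highest in Col4a3-/-OPN-/- against Col4a3-/- hearts (1.26), and Cyp2f2 lies highest in both comparisons with wild type hearts.

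Cyp2f2, the naphthalene-activating P450 of airway club cells in mice, passed the filter through 3 high hearts alone, and its signal was below 5.21 in every wild type heart. Its difference from wild type hearts was 1.18 in Col4a3-/- and 1.12 in Col4a3-/-OPN-/- hearts (SE 0.88 each, limma adjusted p = 0.742 and 0.999), sizes that rest on a dim group and, in Col4a3-/- hearts, on replicate 2 alone. Its signal was 6.75, 4.99 and 6.64 in Col4a3-/-OPN-/- hearts, 4.80, 8.82 and 4.94 in Col4a3-/- hearts, and 5.01, 5.06 and 4.95 in wild type hearts. The groups overlapped. Scgb1a1, the secretory protein that marks club cells, was high in the same 3 hearts, at 9.81 and 9.52 in Col4a3-/-OPN-/- replicates 1 and 3 and 12.2 in Col4a3-/- replicate 2, against 6.10 or less in the others. Cyp2b10, another P450 of lung and liver, reached 7.29 in Col4a3-/- replicate 2 and 5.25 and 5.99 in Col4a3-/-OPN-/- replicates 1 and 3, against 4.80 or less elsewhere. The alveolar genes Sftpb (7.01), Sftpc (5.97) and Sftpa1 (5.60) were also highest in Col4a3-/- replicate 2, against at most 5.56, 5.54 and 5.199 in the other hearts. The mean of 5 lung markers lay between 4.85 and 6.02 in Col4a3-/-OPN-/- hearts, between 4.94 and 7.19 in Col4a3-/- hearts, and between 4.997 and 5.32 in wild type hearts. A second Cyp2f2 probe set, dim and untested, differed from wild type hearts by 0.11 in Col4a3-/- and 0.09 in Col4a3-/-OPN-/- hearts. Its signal was highest in Col4a3-/- replicate 2 (5.53), and Col4a3-/-OPN-/- replicate 3 (5.105) lay within the wild type range. The part of airway tissue in these signals was not tested.

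The P450 genes Cyp2a4 and Cyp4a14, both dim and untested, were highest in a different heart. Cyp2a4, a steroid hydroxylase, was at 6.67 and Cyp4a14, a fatty acid hydroxylase, at 5.87 in Col4a3-/- replicate 3. The other hearts had at most 5.76 and 5.07. That heart also had the highest albumin signal (Alb at 10.5, against 6.52 or less elsewhere) and the highest Apoa1 (7.53). The mean of 6 liver markers was between 5.37 and 5.60 in Col4a3-/-OPN-/- hearts, 5.67, 5.38 and 7.32 in the Col4a3-/- hearts by replicate, and between 5.47 and 5.58 in wild type hearts. Of the 9 members, Cyp2d22 and Cyp2u1 had their lowest signal in this heart, at 6.53 and 7.11. Of other P450 genes of liver, Cyp2a12 (5.03, dim and untested) and Cyp2d26 (5.79) were also highest in Col4a3-/- replicate 3. Cyp3a11 (4.57), Cyp7a1 (4.45) and Cyp2d9 (4.62) were dim in all hearts, and Cyp2e1 was at 7.86, below 3 other hearts. The part of liver RNA in these signals was not tested.

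**Figure D4:**
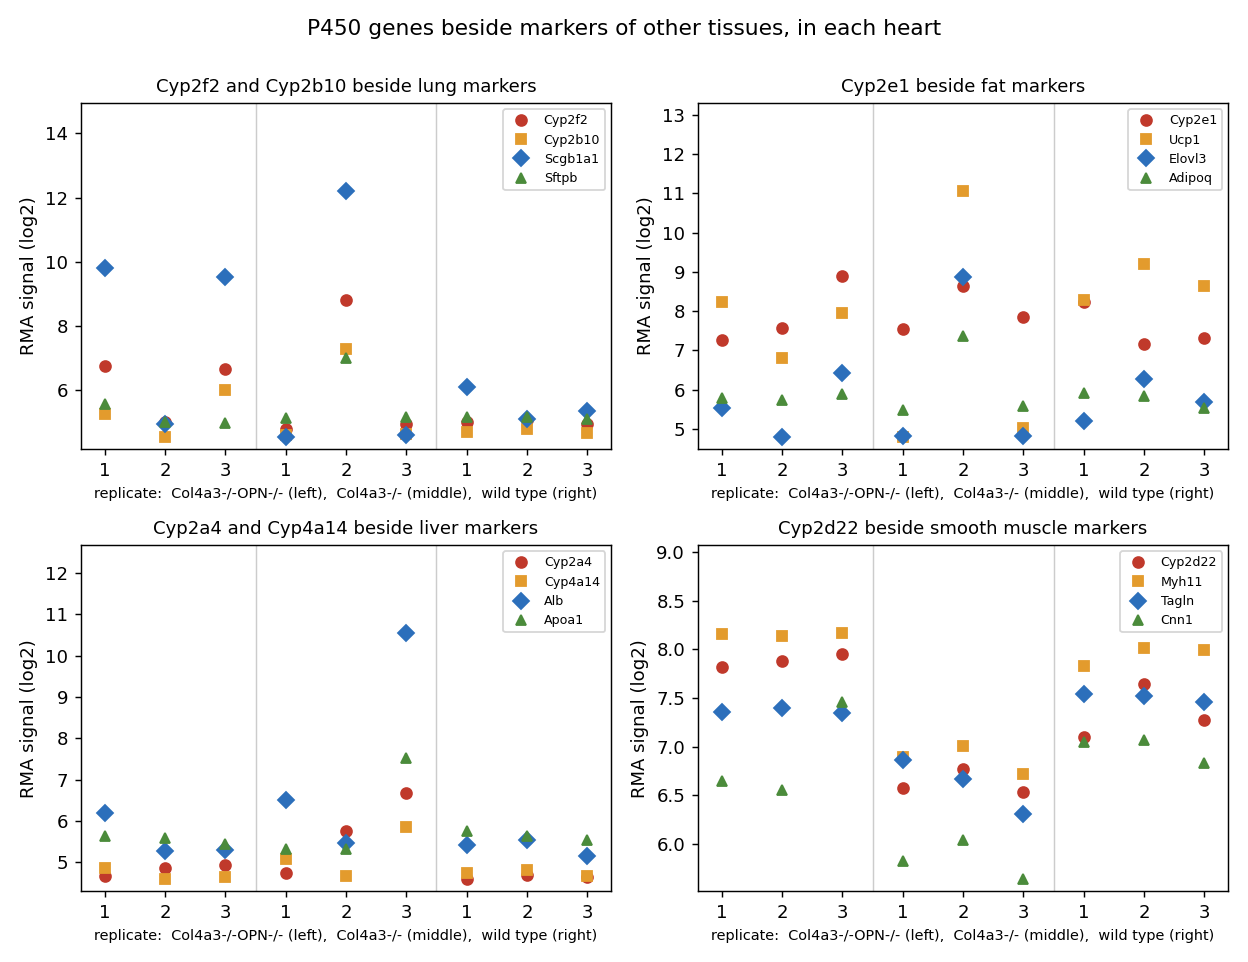
Log2 RMA signal (y axis) of P450 genes beside markers of lung, fat, liver and smooth muscle in each heart (x axis, replicates 1 to 3 of Col4a3-/-OPN-/-, Col4a3-/- and wild type from left to right). Cyp2f2 and Scgb1a1 are high in the same 3 hearts, Cyp2a4 and Alb are highest in Col4a3-/- replicate 3, and Cyp2d22 is lowest in the 3 hearts in which Myh11 is lowest.

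The tested partner and pathway genes of the members gave no call in any comparison. Por, the gene of the flavoprotein reductase, and Fdx2 and Fdxr of the ferredoxin system had no probe set with 1 symbol. They are not covered by this statement. Of 10 measured electron donors and partners, the largest differences in Col4a3-/- against wild type hearts were -0.59 for Cyb5r3, a cytochrome b5 reductase (SE 0.29, limma adjusted p = 0.621), and 0.22 for Cyb5a. Cyb5r3 had a Col4a3-/-OPN-/- minus Col4a3-/- difference of 0.80 (SE 0.29, adjusted p = 0.292), and Cyb5a one of -0.30. The list's medians were -0.06, -5.5e-05 and -0.03 in the 3 comparisons, in the order Col4a3-/- against wild type, Col4a3-/-OPN-/- against Col4a3-/-, and Col4a3-/-OPN-/- against wild type.

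In arachidonic acid and epoxide metabolism, 14 genes were measured above the median signal, and by sign alone 11 were below 0 in Col4a3-/- against wild type (median -0.20), 9 above 0 in Col4a3-/-OPN-/- against Col4a3-/- (median 0.13) and 6 above 0 in Col4a3-/-OPN-/- against wild type hearts (median -0.06). Over all tested probe sets these medians were -0.02, 0.04 and 0.01. The leukotriene-forming lipoxygenase Alox5 had the largest value, 0.98 in Col4a3-/-OPN-/- against Col4a3-/- hearts (SE 0.25, limma adjusted p = 0.175), at means of 7.20 and 6.22, without overlap. Pla2g5, a secreted phospholipase, was lowest in Col4a3-/- against wild type hearts (-0.66, SE 0.31, adjusted p = 0.606). Ptgds, a prostaglandin D synthase, was highest there (0.54) and lowest in Col4a3-/-OPN-/- against Col4a3-/- hearts (-0.70). The unadjusted p was under 0.05 in 1, 5 and 0 of the 14 genes in the 3 comparisons, where it was in 8.35%, 13.6% and 3.68% of all tested probe sets.

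Retinoid genes, the setting in which Cyp26b1 works, had medians of 0.0047, -0.02 and 0.11 over 13 genes. Dhrs3, which returns retinaldehyde to retinol, was lowest in Col4a3-/- against wild type hearts (-0.43, SE 0.18, limma adjusted p = 0.576), with the nearest Col4a3-/- and wild type hearts both at 8.96, and Rbp4, the plasma retinol carrier, was highest (0.33). In Col4a3-/-OPN-/- against Col4a3-/- hearts Aldh1a2, which makes retinoic acid, was highest (0.53, SE 0.40) and Rbp4 lowest (-0.47, SE 0.17, limma adjusted p = 0.300). Rbp4 was at 5.72, 5.60 and 6.26 in Col4a3-/- hearts by replicate. Its highest value was in replicate 3, the heart that also had the highest albumin signal. The part of liver RNA in the Rbp4 values was not tested. Rarb, a receptor gene that retinoic acid induces, had its highest signal in Col4a3-/- replicate 1 (7.11), the heart that also had the most Cyp26b1. No other gene of this list was highest in that heart, and the receptor gene Rarg was at its lowest there (5.93). A retinoic acid response was not tested.

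For xenobiotic sensing, the setting of Cyp1b1, 7 of 11 genes with a probe set were above the median signal, with median differences of 0.06, 0.08 and 0.12 in the 3 comparisons. The receptor Ahr and its partner Arnt differed by 0.21 or less in all comparisons, and the extremes were Gsta4 (-0.22 in Col4a3-/- against wild type, 0.39 in Col4a3-/-OPN-/- against Col4a3-/- hearts) and Gstm2 (0.23 and -0.24). Ahrr, Nr1i2 and Nr1i3, a repressor and 2 receptors of this system, were below the median signal. Among 8 oxysterol and cholesterol genes, 7 had a difference above 0 in Col4a3-/- against wild type hearts (median 0.27). Of all 13650 tested probe sets, 6138 did (median -0.02). The list's medians were -0.15 in Col4a3-/-OPN-/- against Col4a3-/- and 0.07 in Col4a3-/-OPN-/- against wild type hearts. Over all tested probe sets these were 0.04 and 0.01. The cholesterol hydroxylase Ch25h was highest in Col4a3-/- against wild type hearts (0.79, SE 0.29, limma adjusted p = 0.506). Ch25h was the lowest in Col4a3-/-OPN-/- against Col4a3-/- hearts (-0.92, SE 0.29, adjusted p = 0.249). Its signal was 5.52, 5.03 and 5.10 in Col4a3-/-OPN-/- hearts, 5.35, 6.28 and 6.79 in Col4a3-/- hearts, and 5.27, 5.32 and 5.47 in wild type hearts, so 2 Col4a3-/- hearts carried the difference.

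Of 14 clock and PAR bZIP genes, whose D-box factors drive P450 genes in liver, none passed (medians -0.15, 0.08 and 0.05). Nfil3, a repressor at D-boxes, was at 6.91, 6.74 and 6.66 in Col4a3-/-OPN-/- hearts, 7.11, 7.22 and 7.93 in Col4a3-/- hearts, and 7.09, 6.79 and 6.61 in wild type hearts, so that every Col4a3-/- heart lay above all others. Its difference was 0.59 in Col4a3-/- against wild type and -0.65 in Col4a3-/-OPN-/- against Col4a3-/- hearts (limma adjusted p = 0.506 and 0.265). Dbp, an activator at D-boxes, spread from 7.66 to 10.3 within the Col4a3-/- group alone, and the time of day of collection is not given in the labels.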

How the data were processed

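Per the submitters' processing notes, the authors deposited log2 values from RMA, with no software version named. The labels mention a kit for labelling small RNA although the probe sets are those of a gene array, so the labelling is uncertain. Of 33793 probe sets, 23521 had 1 symbol, 1814 several and 8458 none listed, and the 6 P450 probe sets with several symbols were not used here. Older symbols were replaced through gene identifiers (GRCm38.p6 table, all 9 members found). Probe sets with 1 symbol and a mean above 5.21 entered limma (version 3.58.1, R 4.3.3) with all 9 arrays, lmFit and eBayes with trend, two-sided, Benjamini-Hochberg over 13650. The fit was tested on simulated data. The number of arrays limits the precision (median SE of a difference 0.149). The labels do not say more about how the hearts of a genotype were obtained, so p-values measure the spread between these samples.

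The members and gene lists were chosen with earlier results of these data known. Named genes were the members, the 3 highest and 3 lowest other P450 genes per comparison, the extremes of each list and the 5 genes most like Cyp2d22. Cyp2b10, Cyp2a4, Cyp2a12, Cyp4a14, the Cyp2d cluster, the neighbours of Cyp2d22, Arnt, Rarb and the choice of Abcc8 as example came after values were seen. The pattern of Cyp1b1 with Cyp26b1 and the naming of Rarg did as well. Alternatives were quantile normalization, median-centred arrays, no filter, a filter 1 log2 unit higher, eBayes without trend, fits of 2 genotypes alone, the replicate number as a block, a Y-linked covariate and each heart left out.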

Additional observations from a re-analysis of the deposited data

How the results depend on the processing

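The 33 results were recomputed under 17 alternatives. No difference of a member from wild type hearts passed the threshold in any alternative. For Cyp2d22 the difference stayed between 1.185 and 1.33 in Col4a3-/-OPN-/- against Col4a3-/-, where its call was kept in 10 and lost in 7 alternatives, between -0.8305 and -0.5578 in Col4a3-/- against wild type (smallest adjusted p 0.158), and between 0.4281 and 0.7008 in Col4a3-/-OPN-/- against wild type hearts (0.5128). Probe sets called in Col4a3-/- against wild type hearts were 0 as reported, 1 with centred arrays, 1 with the stricter filter, 1 without trend, 4 with the Y-linked covariate and 0 to 6 with a heart left out (6 without Col4a3-/- replicate 2, 4 without Col4a3-/- replicate 1, 1 without wild type replicate 1). In Col4a3-/-OPN-/- against Col4a3-/- hearts they were 6 as reported, 2 with the stricter filter, 0 with the Y-linked covariate and 0 to 22 with a heart left out (0 without Col4a3-/-OPN-/- replicate 1, 11, 22 and 2 without Col4a3-/- replicates 1, 2 and 3, 1 without wild type replicate 3). In Col4a3-/-OPN-/- against wild type hearts they were 0 as reported, 2 with the Y-linked covariate and 0 to 3 with a heart left out (3 without Col4a3-/-OPN-/- replicate 2, 1 without wild type replicate 2). With the replicate number as a block the calls were 0, 0 and 0 in the 3 comparisons. Deviations of same-numbered hearts had correlations of -0.194 to 0.23, and those of replicate 3 were positive in each comparison (0.0648, 0.23 and 0.145). The labels do not say what the numbers stand for. The main fit used no pairing, and these correlations cannot exclude one. Small differences changed sign. In Col4a3-/- against wild type hearts, Cyp1b1 was 0.01813 after quantile normalization, 0.6373 with the Y-linked covariate and -0.3057 to 0.36 with a heart left out. Cyp2j9 was -0.01991 with centred arrays, -0.04514 with the covariate and -0.04749 to 0.08658 with a heart left out. Cyp26b1 was -0.001787 and Cyp27a1 0.0389 with the covariate, and with a heart left out Cyp27a1 was -0.1635 to 0.01108 and Cyp2u1 -0.01927 to 0.2077. In Col4a3-/-OPN-/- against wild type hearts, Cyp2j6 was 0.03618 and Cyp26b1 -0.001844 with the covariate. With a heart left out, Cyp2j6 was -0.1281 to 0.01175, Cyp2e1 -0.1548 to 0.6596 and Cyp27a1 -0.105 to 0.1885. For Col4a3-/-OPN-/- against Col4a3-/- hearts, Cyp1b1 was -0.1254 with the covariate, and with a heart left out Cyp1b1 was -0.165 to 0.5008, Cyp2e1 -0.5985 to 0.2067, Cyp26b1 -0.4425 to 0.1476 and Cyp27a1 -0.03041 to 0.2631. The cause was not tested. Cyp2j6, Cyp2j9 and Cyp26b1 gave no value under the stricter filter, since their mean signal lies below it. With 3 hearts a genotype and signals near the median, small changes could not be detected.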
